A study of Homo sapiens with 3 samples.

Results

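The long arm of chromosome 1 (1q) held 832 of the 23641 8-oxodG peaks deposited for MCF10A cells. Its members are all listed peaks on chromosome 1 whose summit lies at 141 Mb or beyond on the genome build hg18, a rule of position that uses no measured height or enrichment. The short arm (1p) held 1064 peaks and serves as the comparison. MCF10A is an established, spontaneously immortalised line of non-tumorigenic human breast epithelium. All cells were G0-arrested, which means resting outside the cell cycle, by a method the labels do not name. They received no treatment and were grown for 48 hours in medium with 5% horse serum. Sonicated genomic DNA was enriched with an antibody against 8-oxodG and sequenced, a method called DNA immunoprecipitation sequencing. The 3 samples, 2 replicates of a first experiment and 1 sample of a second, form 1 group and share 1 peak list, so no second condition and no value per sample was analysed here.

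8-OxodG (8-oxo-7,8-dihydro-2'-deoxyguanosine) is guanine carrying an added oxygen, one of the most frequent oxidative lesions of DNA. It pairs with adenine as well as with cytosine and so gives rise to G-to-T changes when copied. The glycosylase OGG1 removes it and starts base excision repair. Chromosome arms are divided into cytogenetic bands by Giemsa stain. Light bands (gneg) are rich in genes and replicate early, and the darkest bands (gpos75 and gpos100) are poor in genes and replicate late. The arm 1q begins with a large block of satellite heterochromatin in 1q12, and gain of 1q is among the most frequent chromosome changes in breast tumours.

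The first summit that met the rule lay at 141480135 and the last summit of 1p at 121001481, with the centromere, heterochromatin and an assembly gap between them. Densities are summits per Mb of sequenced contig, with exact Poisson intervals of 95%. These intervals, and those on ratios and shares below, cover counting error only. Peaks with a near neighbour come in pairs or groups, so the intervals on their shares are too narrow even for that. The list serves all 3 samples and gives no value for each, so there is no replicate error, and no test between arms or bands was made. The counts of neighbouring windows vary more than counting error alone gives, so the intervals on densities are too narrow as limits on regional differences. In windows of 1 Mb the variance of the peak counts was 2.37 times their mean on 1q, 4.13 times on 1p and 4.86 times over all windows of the list, where counting error alone would give about 1. The read depth behind each sample is unknown.

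Peaks were slightly sparser on 1q than on 1p. The density on 1q was 7.96 peaks per Mb (7.42 to 8.52) over 104.6 Mb of sequence, and that on 1p was 8.84 (8.31 to 9.38) over 120.4 Mb. The ratio of 1q to 1p was 0.901, with a counting interval of 0.821 to 0.987. Over the whole list the density was 8.35. Among 42 chromosome arms with sequence, 1q ranked 24th in density and 1p 17th. The peaks of 1q covered 416 kb, or 0.398% of its sequence, against 0.465% on 1p and 0.450% over the whole list.

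The order of the arms depended on the distance from the end. In the outer 20 Mb, 1q had 200 peaks (10.1 per Mb) and 1p had 307 (15.8 per Mb), a ratio of 0.640 (0.533 to 0.767). In the remainder of both arms the densities were 7.46 on 1q and 7.50 on 1p, and their ratio of 0.995 had an interval of 0.894 to 1.11. The comparison without the outer 20 Mb was chosen after the data were seen, and its ratio near 1 averages over parts that differ in both directions. Between 20 and 40 Mb from the end 1q was still sparser, with 7.57 (6.41 to 8.88) against 12.2 (10.7 to 13.8) on 1p, and between 40 and 60 Mb the values were 7.79 and 8.65. On 1p, density fell inward in steps, from 17.1 per Mb in the last 5 Mb and 17.6 between 5 and 10 Mb from the end to 12.2 between 20 and 40 Mb and 4.92 between 80 and 110 Mb. No such steady fall was seen on 1q, where the same distances gave 8.37, 9.20, 7.57 and 7.40 peaks per Mb. The outer 20 Mb of 1q still had 1.35 times the density of its remainder (1.15 to 1.59), against 2.10 times on 1p (1.83 to 2.40). In the innermost part of 1p, 110 to 130 Mb from the end, the density was 6.85 (5.40 to 8.58). The part of 1q between 10 and 20 Mb from its end stood highest, at 11.4 (9.36 to 13.7). More than 60 Mb from the end the order turned, with 7.10 on 1q and 5.90 on 1p between 60 and 80 Mb, where the intervals of 5.98 to 8.37 and 4.88 to 7.07 overlap. Between 80 and 110 Mb the values were 7.40 (6.37 to 8.55) and 4.92 (4.15 to 5.78), with intervals that do not overlap. Heights followed the ends in part. The median pileup was 26 on 1q and 31 on 1p in the last 5 Mb, and 28 and 25 between 10 and 20 Mb, with 20 and 21 between 80 and 110 Mb. The median width of 1q ran from 472 bp in the last 5 Mb to 402.5 bp between 80 and 110 Mb, and that of 1p from 540 to 430 bp.

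**Figure D1:**
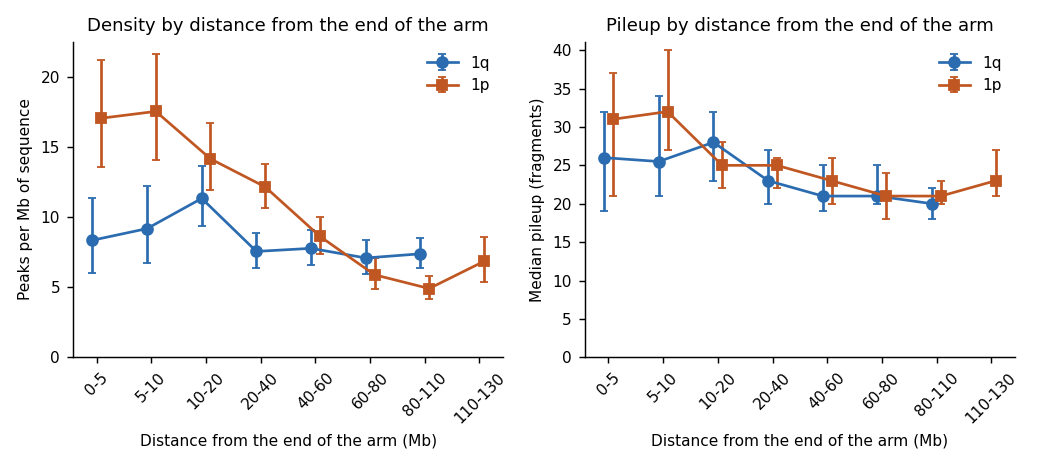
Peak density (left, peaks per Mb of sequence, bars are exact Poisson intervals of 95%) and median pileup at the summit (right, fragments, bars are order-statistic intervals of the median) against distance from the end of the arm in Mb, for 1q (circles) and 1p (squares). The density of 1p falls from 17.1 in the outermost 5 Mb to 4.92 between 80 and 110 Mb and is 6.85 between 110 and 130 Mb. That of 1q lies between 7.10 and 11.4 at all distances.

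Light and dark bands differed less on 1q than on 1p. Light bands (gneg) of 1q had 9.07 peaks per Mb (8.27 to 9.91) and its darkest bands 7.07 (6.15 to 8.10), a ratio of 1.28 (1.09 to 1.52). On 1p the same classes had 10.5 and 5.40, a ratio of 1.94 (1.63 to 2.31). The intervals of these ratios do not overlap, and the difference between the arms was not tested. The darkest bands of 1q, 1q24.3, 1q31.1, 1q31.3, 1q41 and 1q43, thus held 1.31 times the density of those of 1p (1.07 to 1.61). Bands of intermediate stain (gpos25 and gpos50) went the other way, with 6.59 on 1q and 9.81 on 1p (ratio 0.672, 0.549 to 0.818). Light bands make up 50.8% of the sequence of 1q and 40.3% of that of 1p, and the darkest bands 28.3% and 28.0%. Stain and distance from the end were not separated. The dark bands 1q43 (9.58 per Mb) and 1q41 (7.04) lie within 40 Mb of the end of 1q. On 1p every band of the darkest class starts at least 46.5 Mb from the end.

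Peaks on 1q were somewhat narrower than those of 1p at the median and close to them in pileup. The median width was 434.5 bp on 1q (quartiles 350 and 541) and 452.5 bp on 1p (quartiles 366.75 and 572), with counting intervals of 422 to 445 and 440 to 462 on the medians, which overlap. The pileup, the number of fragments stacked at the summit, had a median of 22 on 1q (quartiles 15 and 37) and 24 on 1p (quartiles 16 and 38), with overlapping intervals of 21 to 24 and 23 to 25. Pileups reached 316 on 1q and 149 on 1p, and widths 7733 and 6498 bp. The whole list had medians of 452 bp and 25 fragments. In median width 1q ranked 33rd of 42 arms, and in pileup it shared rank 31 with 5 others. The authors' fold enrichment, with its lost decimal point restored, had medians of 11.4 on 1q, 11.3 on 1p and 11.7 over the list.

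Wide and tall peaks were rarer on 1q than in the list as a whole, while the interval for high folds included the share of the list. Peaks of at least 1 kb numbered 26 on 1q, or 3.12% (2.05 to 4.55), against 5.56% of all peaks and 4.61% on 1p. Of these 26, 7 lay in 1q32.1, or 7.61% of its 92 peaks (3.11 to 15.1). A further 6 lay in 1q42.13, or 9.38% of its 64 peaks (3.52 to 19.3), and no other band held more than 3. Both intervals include the share of all peaks. Peaks with a pileup of at least 50 numbered 113, or 13.6% (11.3 to 16.1), against 18.2% of all peaks and 14.2% on 1p. Peaks with a fold enrichment of at least 20 made up 18.1% on 1q (15.6 to 20.9), 17.7% on 1p and 20.3% of all peaks. Across the 832 peaks of 1q, which share their libraries, width rose with pileup (Spearman's rho = 0.711), as it did on 1p (0.730).

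The background at the summit was the same at the median of both arms. It is the number of fragments that the fold enrichment implies at the summit without enrichment, and was derived as (pileup + 1) / fold enrichment − 1. Its median was 0.944 fragments on 1q and 0.944 on 1p, a value shared by 20 of 42 arms, because the background takes few distinct values (86 among the 832 peaks of 1q). The upper quartile was lower on 1q, at 1.26 against 1.42. The lowest value in the list, 0.460, was that of 4.69% of the peaks on 1q, 3.95% of those on 1p and 3.82% of all peaks. With peaks scaled by the background of their band, the density ratio of 1q to 1p was 0.957, against 0.901 unscaled. Since the depth of a region depends on how many copies the cells carry, fewer or more copies and less or more 8-oxodG cannot be told apart in peak density. Gain of 1q has been described in this line, and its part in these densities was not tested.

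**Figure D2:**
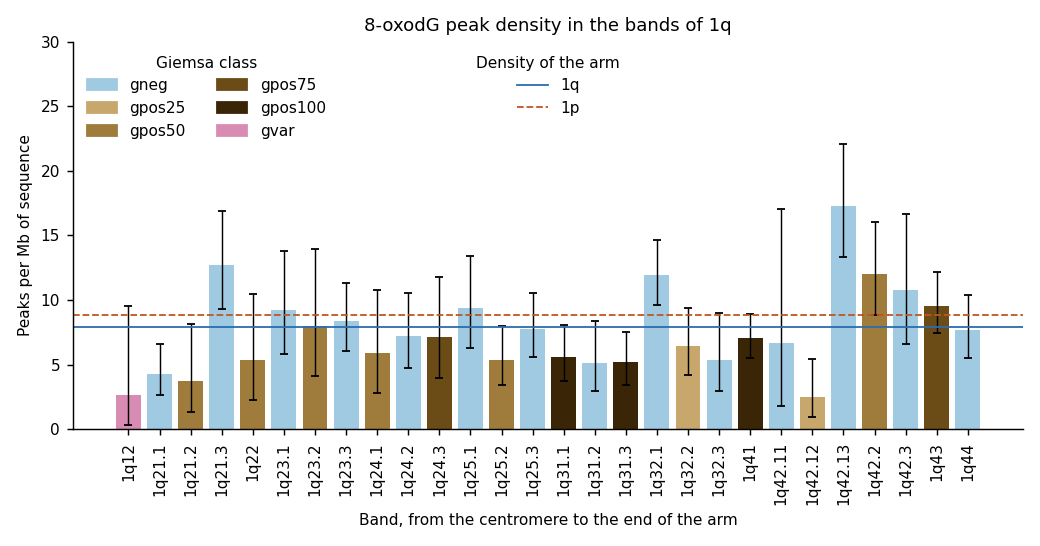
Peak density in each of the 28 bands of 1q that hold sequence (peaks per Mb of sequence, bars coloured by Giemsa class, error bars are exact Poisson intervals of 95%), from the centromere on the left to the end of the arm on the right, with the densities of 1q (solid line) and 1p (dashed line). The bands 1q42.13, 1q21.3, 1q42.2 and 1q32.1 stand highest and 1q42.12 lowest among the bands.

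The arm was uneven from band to band, though less uneven than 1p in windows of 1 Mb. There the variance of the counts was 2.37 times their mean on 1q, 4.13 times on 1p and 4.86 times over the list. Of the 28 bands of 1q with sequence, 4 had an interval wholly above the density of the arm (1q21.3, 1q32.1, 1q42.13 and 1q42.2), 3 had one wholly below (1q21.1, 1q31.3 and 1q42.12), and 21 included it. The share of such bands over the genome is not given here. Of the 747 stained bands of the genome with at least 1 Mb of sequence, 16.2% had at least 1.5 times the density of the whole list. On 1q these dense bands numbered 2 of 26 (1q42.13 and 1q21.3), or 7.69%, and on 1p 8 of 31, or 25.8%. The median band density was 7.18 on 1q, 7.91 on 1p and 6.92 over the 747 bands. Across the 26 bands of 1q, which share their libraries, density went weakly with the median background (Spearman's rho = 0.225), while across the 31 bands of 1p rho was 0.528. The same held for the median width (0.281 and 0.646) and the median pileup (0.223 and 0.510). The band names are used with textbook knowledge of the genes they hold, and the positions of these genes on hg18 were not checked.

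The part next to the centromere had few peaks, but these included the tallest of the arm. The bands 1q12 and 1q21.1 together had 23 peaks in 5.62 Mb, or 4.09 per Mb (2.59 to 6.14), and 1q21.1 alone had 0.531 times the density of the rest of 1q (0.327 to 0.817). The band 1q21.1 is known for long duplicated segments, and 18 of the 23 contigs of 1q start before 1q21.2. Of the 5 peaks of highest pileup on 1q, 3 lay here. The tallest (141476773 to 141484505, 1q12) had a pileup of 316, at rank 2 among all peaks of the list, and a width of 7733 bp. Its background of 37.4 fragments was the highest in the whole list, so its fold enrichment was 8.25, below the median of the arm. The other peak in 1q12 (141908556 to 141909435) had a pileup of 150, a fold of 16.2 and a background of 8.34. Both stood at the edges of contigs: the first began 185 bases before its contig of 196 kb, and the other ended 151 bases after its contig of 187 kb. They were the only 2 peaks of 1q that reached past a contig. In 1q21.1, the peak from 147295360 to 147296206 had a pileup of 208 (rank 15 in the list) and a fold of 32.13 over a background of 5.50, and that from 147114428 to 147117716 was 3289 bp wide. The median background in 1q21.1 was 1.10 fragments. The lowest background of the list was that of 5 of the 21 peaks in this band, or 23.8%, against 3.82% of all peaks. Whether the tall peaks come from repeated sequence was not tested.

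The next band, 1q21.2, which holds a cluster of replication-dependent histone genes, had 6 peaks in 1.6 Mb, or 3.75 per Mb (1.38 to 8.16). Its median pileup was 17 and its median background 0.645, the lowest among the bands of 1q with at least 1 Mb of sequence.

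The band 1q21.3 holds the epidermal differentiation complex, a cluster of genes for the outer layers of stratified epithelia. In the gene order of the RefSeq table for GRCh38.p14, used here for names only, 63 protein-coding genes run from S100A10 to S100A1. They include at least 15 S100A genes, whose products bind calcium, 19 late cornified envelope (LCE) genes and 11 genes for small proline-rich proteins (SPRR). Also among them are 7 for the filaggrin type of protein such as FLG and HRNR, and those for involucrin (IVL) and loricrin. All values given here are for the whole band, and which of its peaks lie within the complex was not determined. This band had 47 peaks in 3.7 Mb, or 12.7 per Mb (9.33 to 16.9), which was 1.63 times the density of the rest of 1q (1.19 to 2.19). It ranked 118th of the 747 bands of the genome with at least 1 Mb of sequence.

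The many peaks of 1q21.3 were mostly low. The median pileup was 18 (quartiles 15.5 and 27, interval 16 to 23), against 23 in the rest of 1q, a value at the limit of that interval. The median width was 402 bp (interval 374 to 467) against 437 bp, which lies inside it. Similar medians of 20 fragments and 402.5 bp were seen in the whole inner part of 1q, 80 to 110 Mb from the end, which includes this band. The median fold was 10.1. A pileup of at least 50 was reached by 2 of 47 peaks, or 4.26% (0.520 to 14.5), against 14.1% in the rest of the arm, a share inside that interval, and 18.2% of all peaks. When only peaks of at least the median fold enrichment of the list were counted, the density ratio to the rest of 1q fell to 1.08. The 3 tallest peaks of the band started at 150436253 (pileup 92, fold 36.1), 152994600 (pileup 73, fold 40.02) and 151918850 (pileup 48, fold 30.1). The 3 widest spanned 1319 bp (from 151483034), 1064 bp (from 150348462) and 1043 bp (from 152994600). A neighbour within 10 kb was found for 16 of the 47 peaks, or 34.0% (20.9 to 49.3), against 26.4% of all peaks. No peak of the band had a neighbour within 1 kb, against 5.70% of all peaks, and a count of 0 in 47 has an exact upper limit of 7.55%.

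Within 1q21.3 the peaks were spread out, with a thinner part. The parts from 149.6 to 150 Mb, from 150 to 150.5 Mb and from 151 to 151.5 Mb had 6, 7 and 7 peaks. The interval from 150.5 to 151 Mb had 2, and that from 151.5 to 152 Mb had 10, the most in the band. A further 3 lay between 152 and 152.5 Mb, 7 between 152.5 and 153 Mb, and 5 in the last 0.3 Mb. With so few peaks in each, the interval for the thinnest part (0.484 to 14.4 per Mb) overlaps that for the fullest (9.59 to 36.8). The median background of the band was 0.881, below the 0.944 of the arm.

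**Figure D3:**
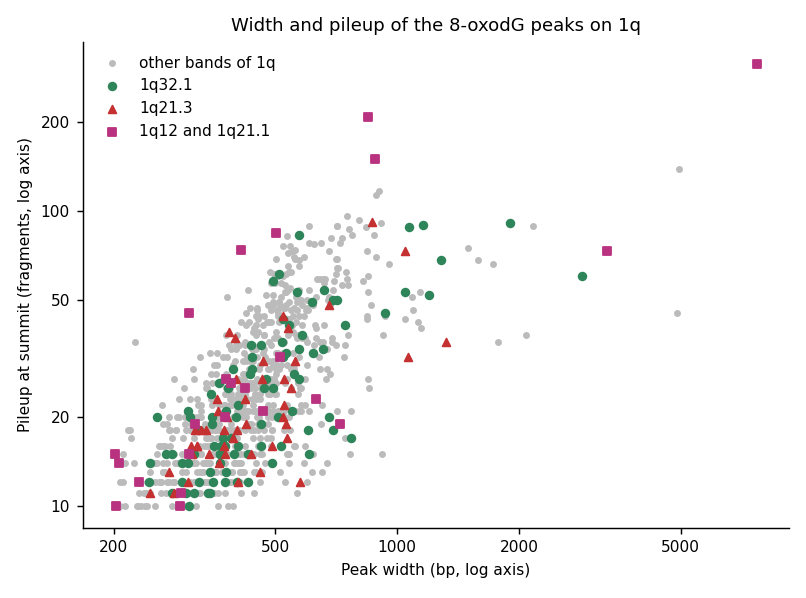
Pileup at the summit (fragments, log axis) against width (bp, log axis) for each of the 832 peaks of 1q, with peaks in 1q21.3 as triangles, in 1q32.1 as dark circles, in 1q12 and 1q21.1 as squares and in all other bands as small grey circles. Only 2 triangles lie at a pileup of 50 or more, and the squares include the peaks of pileup 316, 208 and 150.

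From 1q22 to 1q31.3 the density stayed near or below that of the arm. The bands 1q22 to 1q23.3, which hold among others the genes for the epithelial mucin MUC1 and for the receptors of the Fc gamma family, had 85 peaks, or 8.10 per Mb (6.47 to 10.01). Within them 1q23.1 had 9.20, 1q23.2 had 8.00 and 1q23.3 had 8.40 per Mb. The band 1q22 had 5.33 per Mb and the highest median background of any band of 1q with at least 1 Mb of sequence, at 1.42 fragments. The peak of highest fold enrichment on 1q lay in 1q23.3 (163351586 to 163352296), with a fold of 52.2, a pileup of 89 and a background of 0.723. Its nearest neighbour was 233895 bp away. The bands 1q24.1 to 1q25.3 had 145 peaks, or 7.18 per Mb (6.06 to 8.45). The light band 1q25.1 stood highest among them at 9.35 (6.27 to 13.4) and 1q25.2 lowest at 5.35 (3.39 to 8.03), with 1q24.1 at 5.88, 1q24.3 at 7.14, 1q24.2 at 7.22 and 1q25.3 at 7.78. In the bands 1q31.1 to 1q31.3, the gene-poor middle of the arm, 72 peaks gave 5.33 per Mb (4.17 to 6.72). Single bands ranged there from 5.16 to 5.60. The median pileup of these peaks was 23, against 22 on the whole arm.

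The band 1q32.1 had 92 peaks in 7.7 Mb, more than any other band of 1q. It holds the genes for MDM4, an inhibitor of p53, for the histone demethylase KDM5B and for the epithelial transcription factor ELF3. Its density of 11.9 per Mb (9.63 to 14.7) was 1.56 times that of the rest of the arm (1.25 to 1.94), and it ranked 133rd of 747 bands in the genome. Its neighbours towards the end of the arm, 1q32.2 and 1q32.3, had 6.03 per Mb together (4.33 to 8.18). The median pileup was 20 (interval 17 to 25), the median width 434 bp, the median fold 10.5 and the median background 0.944, the last equal to that of the arm. Restricted to peaks of at least the median fold enrichment, the ratio to the rest of 1q fell to 1.23.

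The peaks of 1q32.1 were unevenly spread. The interval from 201.5 to 202 Mb had 16 peaks, or 32.0 per Mb (18.3 to 52.0), and those from 200 to 200.5 Mb and from 202 to 202.5 Mb had 9 each. Between them, the 2 intervals from 200.5 to 201.5 Mb had 3 each. The thinnest, from 198 to 198.5 Mb, had 2. One of the 2 groups of 5 peaks on 1q, in which summits lie at most 10 kb apart, was in this band. It spanned 20.3 kb (201819557 to 201839886), with pileups of 35, 11, 32, 20 and 16. A neighbour within 10 kb was found for 33 of the 92 peaks, or 35.9% (26.1 to 46.5), against 26.4% of all peaks, a share within that interval. A neighbour within 1 kb was found for 6, or 6.52%, against 5.70%. A pileup of at least 50 was reached by 14 peaks, or 15.2% (8.58 to 24.21), against 18.2%. Of the 92 peaks, 7 were at least 1 kb wide, or 7.61%, against 5.56% of all peaks and 3.12% on the arm, both within its interval of 3.11 to 15.1. The widest were 2849 bp (from 199491549, pileup 60), 1902 bp (from 199877448, pileup 91) and 1285 bp (from 199242413, pileup 68). The peaks of highest pileup were that of 91, one of 90 (205163651 to 205164810) and one of 88 (203646559 to 203647630). Of these, the peak of 90 had a background of 9.59 and a fold of 8.59, while the other two had folds of 26.2 and 35.0.

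The densest band of 1q was 1q42.13, with 64 peaks in 3.7 Mb, or 17.3 per Mb (13.3 to 22.1), 2.27 times the rest of the arm (1.73 to 2.93). It is known for the genes WNT3A and WNT9A, which encode secreted signalling proteins, and for an array of 5S ribosomal RNA genes. Here the peaks were also taller and wider at the median than on the whole arm. The median pileup was 31.5 (quartiles 21 and 49, interval 26 to 38) and the median width 504.5 bp (interval 467 to 557), both intervals above those of the whole arm. A pileup of at least 50 was reached by 15 of 64 peaks, or 23.4% (13.8 to 35.7), and the interval includes the 18.2% of all peaks. The median fold was 14.0 and the median background 1.12. The third widest peak of 1q, at 4904 bp (226321936 to 226326839), had a pileup of 45 over a background of 2.20. The window from 226 to 227 Mb held 29 peaks, the most on 1q, and 8 peaks of the band, or 12.5% (5.55 to 23.15), had a neighbour within 1 kb, against 5.70% of all peaks. A group of 4 peaks in 19.1 kb (226153713 to 226172841) had pileups of 46, 66, 91 and 20, and the third had a fold of 47.3. Next to it, 1q42.12, the band of the DNA strand-break sensor PARP1, had 6 peaks in 2.4 Mb, or 2.50 per Mb (0.917 to 5.44), the lowest on the arm.

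The other outer bands lay between these values. The bands 1q41 to 1q43 together had 279 peaks, or 9.46 per Mb (8.38 to 10.6). The band 1q42.2 had 12.1 per Mb (8.85 to 16.03), 1q42.3 had 10.8 (6.60 to 16.7), 1q43, the dark band of the calcium channel gene RYR2, had 9.58 (7.44 to 12.1), and 1q41 had 7.04 (5.48 to 8.89). In 1q42.2 and 1q43 lay the other 3 of the 5 highest folds beside those of 1q23.3 and 1q42.13, at 43.4 (229249475 to 229250278), 43.1 (232366367 to 232366890) and 45.9 (234915275 to 234916174). The last had a pileup of 117, the fifth highest on 1q. In 1q42.11 a peak of 4961 bp (222265827 to 222270787) had a pileup of 139 over a background of 10.9. The terminal band 1q44, known for a large cluster of olfactory receptor genes, had 42 peaks, or 7.71 per Mb (5.55 to 10.4), 0.967 times the rest of the arm. At the other end of the chromosome, the terminal band 1p36.33 had 11.16 per Mb (7.15 to 16.6), an interval that overlaps that of 1q44, and the next bands, 1p36.32 and 1p36.31, had 22.5 and 20.6.

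**Figure D4:**
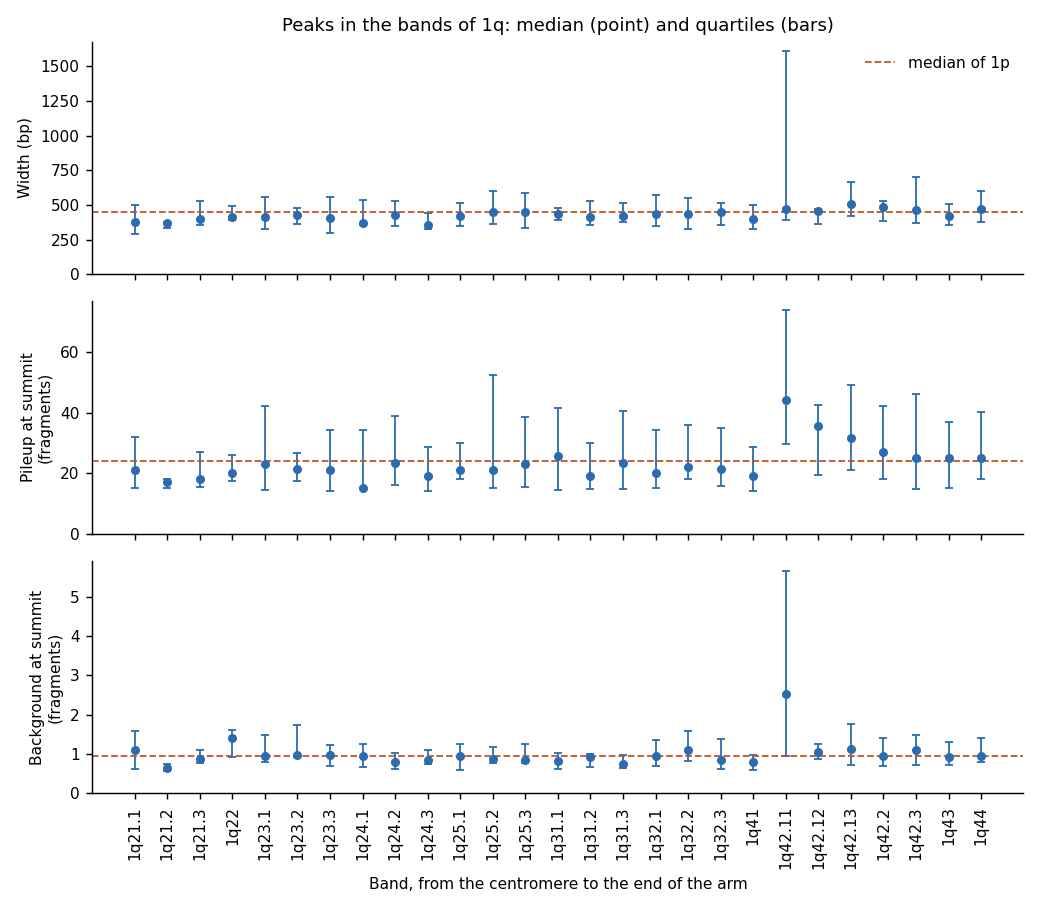
Median (points) and quartiles (bars) of peak width in bp, pileup at the summit in fragments and background at the summit in fragments for the 27 stained bands of 1q, from the centromere on the left to the end of the arm on the right, with the median of 1p as a dashed line. From 1q42.13 to 1q44 the median pileup lies at or above 25, and in 1q42.11, with 4 peaks, the bars reach far up in all panels.

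Peaks on 1q were more widely spaced than on 1p. The median distance between neighbouring summits was 77035 bp (quartiles 26800.5 and 174888) on 1q and 63008 bp on 1p. A neighbour within 10 kb was found for 23.0% of the peaks on 1q (20.1 to 26.0), 26.5% on 1p and 26.4% of all peaks, and a neighbour within 1 kb for 4.57%, 3.95% and 5.70%. With summits at most 10 kb apart, 1q had 84 groups of at least 2 peaks, 12 of them with at least 3, and 1p had 121 groups, 25 of them with at least 3. The groups held 185 of the 832 peaks on 1q and 274 of the 1064 on 1p. The other group of 5 lay in 1q41 (221419320 to 221439593, pileups 11 to 34).

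Windows of 1 Mb put the counts on a common scale. Over 105 windows of 1q with at least 50% sequence, the mean was 7.89 ± 4.33 peaks (SD over windows), and over 121 windows of 1p it was 8.79 ± 6.02. Windows with at least 2 times the mean of the list, or 17 peaks or more, made up 9.00% of all windows, 9.92% of those on 1p and 5.71% of those on 1q (6 windows, 2.13 to 12.02). The 6 started at 226 Mb (29 peaks), 201 Mb (19), 232 Mb (18), and 151, 202 and 228 Mb (17 each). They fell in 1q21.3, 1q32.1, 1q42.13 and 1q42.2, the 4 bands named above, whose densities count the same peaks. A window without a peak was found 1 time on 1q (from 142 Mb, with 0.75 Mb of sequence), or 0.952% against 0.774% of all windows. Within single contigs, no peak lay in stretches of 0.906 Mb around 1q42.12 (222427105 to 223332994), 0.724 Mb in 1q44 (246197936 to 246922104) and 0.714 Mb in 1q23.1 (156710569 to 157424587), the 3 longest on 1q, while the longest on 1p measured 1.73 Mb and lay in 1p31.1. Across contig borders, 2 longer distances between neighbouring peaks lay near the centromere of 1q. They measured 1.40 Mb (141909436 to 143311277), of which 1.05 Mb was sequence, and 1.07 Mb (144412811 to 145478466), of which 0.966 Mb was sequence. Densities took no account of which sequence reads can be mapped to.

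**Figure D5:**
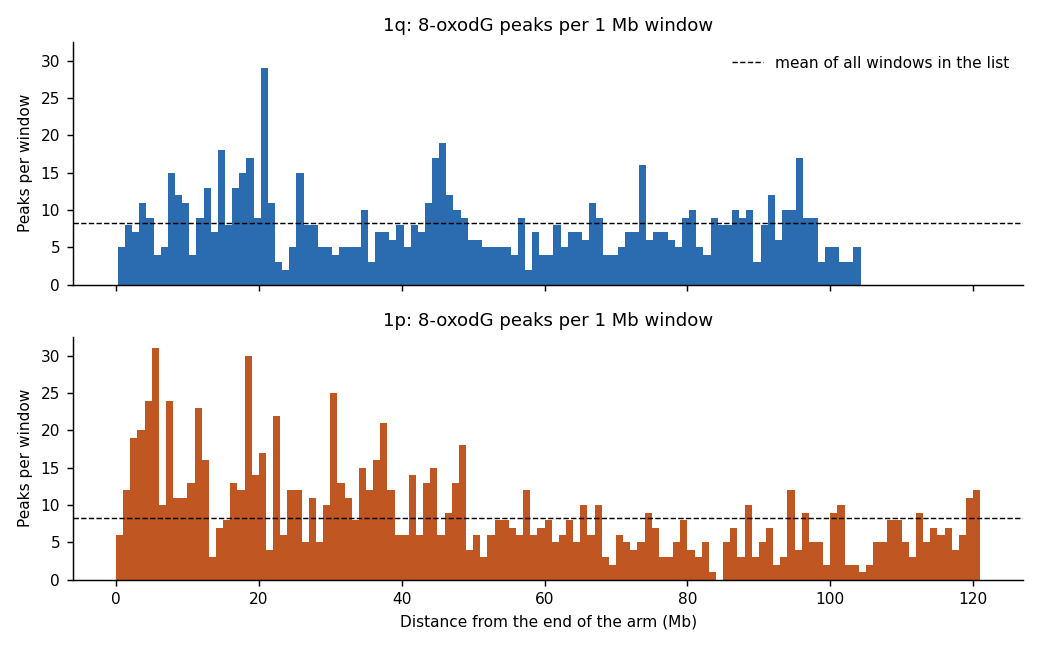
Number of peaks in each window of 1 Mb with at least 50% sequence, against the distance of the window's centre from the end of the arm in Mb, for 1q (top) and 1p (bottom), with the mean of all windows in the list as a dashed line. The tallest bar of 1q, 29 peaks, stands about 20 Mb from the end, whereas on 1p bars above the mean are crowded into the outer part of the arm.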

How the data were processed

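The deposited data were 1 peak list, named by the labels of all 3 samples, in which the authors gave position, width, summit, pileup (a signal in fragments), fold enrichment, −log10 p and −log10 q, per the file headers. The submitters' processing notes name BWA, SAMtools, bedtools and the build hg18. The peak caller, its control and the pooling of samples were not given in the sources used here. Decimal points of fold, p and q were lost in the deposited table. They were restored by matching p to the Poisson chance of exceeding the pileup at a background of (pileup + 1) / fold − 1, which met within 0.01 for 23640 of 23641 peaks and for all 832 on 1q. The restoration and the ratio intervals were tested on simulated data drawn from the same Poisson relations that they assume. Such a test checks the computation and cannot show whether the real counts follow these relations. Bands came from circlize 0.4.16 and contigs from IRanges 2.36.0 (R 4.3.3). Computations used Python 3.11.15, numpy 2.4.6, pandas 2.3.3, scipy 1.17.1 and matplotlib 3.10.9. Ratios of densities have exact binomial intervals, shares exact Clopper-Pearson intervals, and medians order-statistic intervals. Peaks were placed in bands by summit. Named were all bands of 1q, the 5 peaks of highest pileup, highest fold and greatest width, the 5 fullest windows with ties, the 3 longest empty stretches, the 3 largest groups, and the 3 tallest and widest peaks of 1q21.3 and 1q32.1. The region and the lists were chosen with earlier results of these data known.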

Additional observations from a re-analysis of the deposited data

How the results depend on the processing

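The 9 values of the arm and its bands were recomputed in 64 alternatives, of which 1 was chosen after seeing the data, and 49 stayed within the counting interval of the reported value. With only peaks of at least the median fold enrichment, by construction fewer and taller, the density of 1q was 3.77 peaks per Mb, and the median width, pileup and fold were 508 bp, 36 fragments and 17.7. The density ratios to the rest of 1q were then 1.08 for 1q21.3 and 1.23 for 1q32.1. With −log10 q of at least 15, the density was 5.20, the medians were 485.5 bp, 31 fragments and 14.9, and the ratio of the median background of 1q to 1p was 0.871. With assembly gaps counted as length, the density was 6.77 and the ratio of 1q to 1p 0.791. By covered bases, the ratio of light to dark bands on 1q was 1.54. It was 1.11 with peaks scaled by the background of their band, and 1.12 with only peaks of at least the median fold enrichment. Without the outer 20 Mb of both arms, the ratio of 1q to 1p was 0.995. Covered bases gave no density in peaks. The ratio of 1q to 1p stayed below 1 (0.791 to 0.995), and those of 1q21.3 (1.08 to 1.93), 1q32.1 (1.23 to 1.84) and light to dark bands (1.11 to 1.54) above it, in all alternatives run. At 0.995, however, the counting interval of 0.894 to 1.11 includes 1. With only peaks of at least the median fold enrichment, 1.08 and 1.23 lay below the counting intervals of the reported ratios. Those intervals were 1.19 to 2.19 for 1q21.3 and 1.25 to 1.94 for 1q32.1. The 1.08 and 1.23 have no interval of their own here, so they do not show an excess among these peaks. Placing peaks by midpoint changed none of the values it was applied to. No paired analysis was possible because the list holds no value per sample, and no sample could be left out for the same reason.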
